A study of Bos taurus with 4 samples.

Results

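Bovine intramuscular preadipocytes, the precursors of fat cells found among skeletal muscle fibres, were compared after 6 days of adipogenic culture without retinoid (day 6 control) with the same cells at day 0. The arrays were taken by the group the labels give them, which yields 6 of the 12 arrays in the series, 3 for each group. The cells are known from earlier work, not from the labels, as a clonal line established from bovine intramuscular fat, and the labels name no animals. Day 0 cells were harvested at the point when confluent cultures would receive the adipogenic medium, and the labels list them as untreated. Day 6 cells were kept in Dulbecco's modified Eagle's medium with 10% fetal bovine serum, insulin at 50 ng/mL, the synthetic glucocorticoid dexamethasone at 0.25 µM, octanoate at 5 mM, acetic acid at 10 mM and antibiotics, renewed every 2 days. The other 6 arrays hold cells kept in the same medium for 6 days with all-trans or 9-cis retinoic acid at 1 µM. They enter here through the shared estimate of the spread between arrays, the choice of each gene's probe and the choice of genes tested. No group was kept for 6 days without the inducers, so the effect of the medium and that of 6 more days of culture cannot be told apart.

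Adipogenesis is known to start when confluent precursors meet insulin, a glucocorticoid and fatty acids. The early factors CEBPB and CEBPD precede PPARG and CEBPA, which switch on genes of fatty acid uptake and storage such as FABP4, LPL and CD36, and mature fat cells are marked by the hormones adiponectin and leptin and by perilipin 1 around the lipid droplet. Fibroblast-like precursors also leave the cell cycle and rebuild their collagen matrix into a basement membrane as they mature. In cattle the intramuscular depot is the source of marbling.

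The values below are log2 spot signals relative to the 75th percentile of their array, so that 0 is a bright gene and about -6 or lower lies near background. They are given in the order of arrays 1, 2 and 3, which is a naming order only. A difference is day 6 minus day 0 on the log2 scale with its SE, and 1 unit is a 2-fold change. A gene was called (rose or fell) at a Benjamini-Hochberg adjusted p under 0.05 by limma, over 17622 genes tested. Testing was limited to genes whose brightest probe read well above background on each of the 3 arrays in at least 1 of the 4 groups, and 7529 dimmer genes were not tested. The labels give 1 sample per group with 3 array files and do not say whether these were separate cultures, so a p-value here reflects the spread among arrays alone, and that spread may be technical.

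Each array is read by 60-base probes, and 7 of those behind results below are shown, 1 for each of 7 gene groups described below. Each covers a span of more than 60 bases on the genome (build UMD3.1), so its bases come from stretches that lie apart there. The probe for ACAT2, an enzyme that joins acetyl units at the start of sterol synthesis, spans chr9:97480208-97480707 on the forward strand and fell 4.84-fold. That for SREBF1, the transcription factor that drives fatty acid synthesis genes, spans chr19:35249388-35249546 on the forward strand. That for A2M, a broad protease inhibitor, spans chr5:101341122-101341331 on the forward strand, and that for LAMA2, a laminin chain of basement membranes, spans chr9:68660539-68663106 on the forward strand. The LOXL1 probe, for an enzyme that crosslinks elastin and collagen, spans chr21:35060150-35061949 on the reverse strand. The SMAD3 probe, for a transducer of TGF-beta and activin signals, spans chr10:13977803-13980291 on the forward strand, and the PER2 probe, for a repressor of the circadian clock, spans chr3:118201198-118204102 on the reverse strand. They are printed 5′ to 3′ as deposited, in lower case, with no part marked in capitals.
ACAT2: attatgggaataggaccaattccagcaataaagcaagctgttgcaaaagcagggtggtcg
SREBF1: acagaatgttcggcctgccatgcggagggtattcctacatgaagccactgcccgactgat
A2M: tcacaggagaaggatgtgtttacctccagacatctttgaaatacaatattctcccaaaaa
LAMA2: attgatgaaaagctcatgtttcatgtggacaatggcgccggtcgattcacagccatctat
LOXL1: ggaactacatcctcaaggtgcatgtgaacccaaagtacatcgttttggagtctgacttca
SMAD3: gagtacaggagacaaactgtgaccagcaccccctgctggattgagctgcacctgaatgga
PER2: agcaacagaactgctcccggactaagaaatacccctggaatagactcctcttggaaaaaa

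Of the genes tested, 10986 were called (62.3%), 5463 higher (31%) and 5523 lower (31.3%) at day 6. At least 2-fold changes were called for 1492 genes upward (8.47%) and 1025 downward (5.82%), and the median of all genes tested was 0.0042. Counts of list members below are read against these shares, and a list with near 31% called each way does not stand apart from all genes tested. The arrays of the groups did not overlap for 32.9% of genes upward and 34.7% downward. Increases reached further than decreases: 197 genes rose and 66 fell by at least 3 on the log2 scale. Probes and genes were chosen over all 12 arrays, most of them of day 6 cells, which can favour genes high at day 6. The part of this choice in the gap was not tested. Day 6 control array 1 lay on the slide of the 3 day 0 arrays and arrays 2 and 3 on another slide. Array 1 stands apart from the other 5: it had 110 spots marked by the scanner software against 4 to 12, and 64.8% of its probe spots were well above background against 70.9% to 73.0%. Without it 11583 genes were called. The median SD between arrays was 0.06 at day 0 and 0.12 at day 6. With slide as a block the estimate rests on day 6 array 1 alone, and it is given beside a named gene's value where it changes the call or the direction or moves the value by over 1.5 times, except for the genes chosen for how array 1 differed from arrays 2 and 3.

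**Figure D1:**
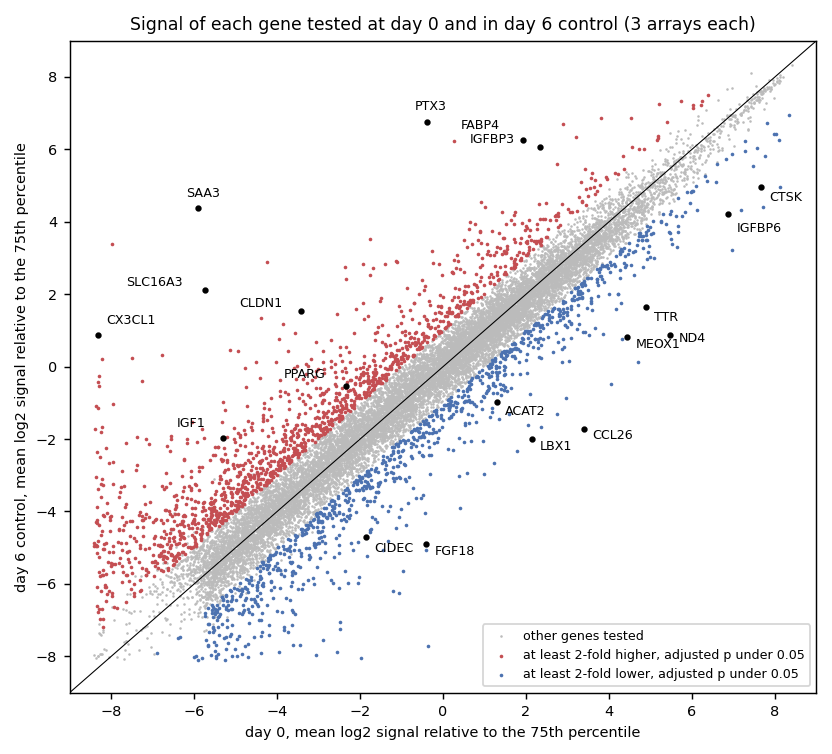
Mean log2 signal of each gene tested at day 0 (horizontal axis) and in day 6 control (vertical axis), 3 arrays each, relative to the 75th percentile of the array. Red and blue points are genes called at least 2-fold higher (1492) or lower (1025), grey points the others, and the line marks equal signal. SAA3, PTX3, SLC16A3 and FABP4 lie far above the line, and CCL26, ND4, FGF18 and LBX1 far below it.

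Among the 15 largest increases of genes well above background on all 6 arrays were a tight junction protein, a histamine receptor and an inhibitor of mineral deposition. CLDN1, the tight junction protein, read -3.33, -3.36 and -3.57 at day 0 and 1.49, 1.53 and 1.59 at day 6, a 31.1-fold rise (4.96 ± 0.07, adjusted p = 1.2e-11). HRH1, a receptor for histamine, read -2.50, -2.25 and -2.25 at day 0 and 2.41, 2.41 and 2.47 at day 6 (4.76 ± 0.08). ENPP1, which makes pyrophosphate outside the cell and is known to bind the insulin receptor, read -5.16, -4.64 and -4.53 at day 0 and -0.04, 0.05 and -0.09 at day 6 (4.75 ± 0.14). The groups lay over 4 log2 units apart on every array for all of them. Non-overlap between groups was a condition of this ranking, met upward by 32.9% of genes tested. P4HA3, which hydroxylates proline in procollagen, rose by 4.76 ± 0.10, TMEM255A by 4.49 ± 0.09, ANKRD37, a gene induced in hypoxia, by 4.74 ± 0.08 and CA9, a carbonic anhydrase at the cell surface, by 4.65 ± 0.07. The others were SLC16A3, ANGPTL4, PTX3, RARRES1, SFRP1, ADGRB1, TMEM59L and MAOA, at 5.03 to 7.85, and the 4 probes of TMEM59L ranged from 0.23 to 5.38.

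Where no probe of a gene was well above background at day 0, the rise is given as a lower bound. It was highest for the serum amyloid A gene M-SAA3.2 (at least 712-fold), followed by the membrane-bound chemokine CX3CL1 (at least 127-fold). PGF, a growth factor of the VEGF family, read -8.34, -8.32 and -8.25 at day 0 and -0.18, -0.30 and -0.30 at day 6 and was at least 57.2-fold higher on its brightest probe. The 3 probes of PGF differed by 3.89 to 8.04. STC1, a secreted inhibitor of the IGF-releasing protease PAPPA, was at least 52.6-fold higher, CLEC12B, a lectin-like receptor, at least 51.4-fold and GPM6B, a membrane glycoprotein, at least 32.4-fold.

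Mitochondrially encoded genes and homeobox transcription factors of mesoderm were among the 15 largest decreases. MEOX1, a homeobox factor of the somite, read 4.48, 4.47 and 4.36 at day 0 and 0.73, 0.98 and 0.73 at day 6 (-3.63 ± 0.09), and LBX1, a homeobox factor of migrating muscle precursors, read 2.08, 2.15 and 2.18 at day 0 and -2.30, -1.96 and -1.76 at day 6 (-4.14 ± 0.13). For this ranking too, non-overlap between groups was a condition, met downward by 34.7% of genes tested. WFDC1, a secreted protein with a protease inhibitor fold, changed by -3.66 ± 0.11, ISG15, a ubiquitin-like protein induced by interferon, by -3.93 ± 0.18, and PSMB10, a subunit of the immunoproteasome, by -3.59 ± 0.10. The mitochondrially encoded ND1, ND2, ND4, ND4L, ND5 and ATP8 changed by -4.60 (ND4) to -3.55 (ND5). Others were CCL26, ISLR and LGI2, between -5.10 and -4.12. Among genes with no probe well above background at day 6, CLEC14A, a lectin of endothelium, was at least 13.7-fold lower, the thrombin receptor THBD at least 9.76-fold and the water channel AQP1 at least 9.55-fold. FBXL22, RAMP1, a partner of the calcitonin receptor, and MYLK2, a myosin kinase, were at least 7.36-fold, 6.47-fold and 6.33-fold lower.

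**Figure D2:**
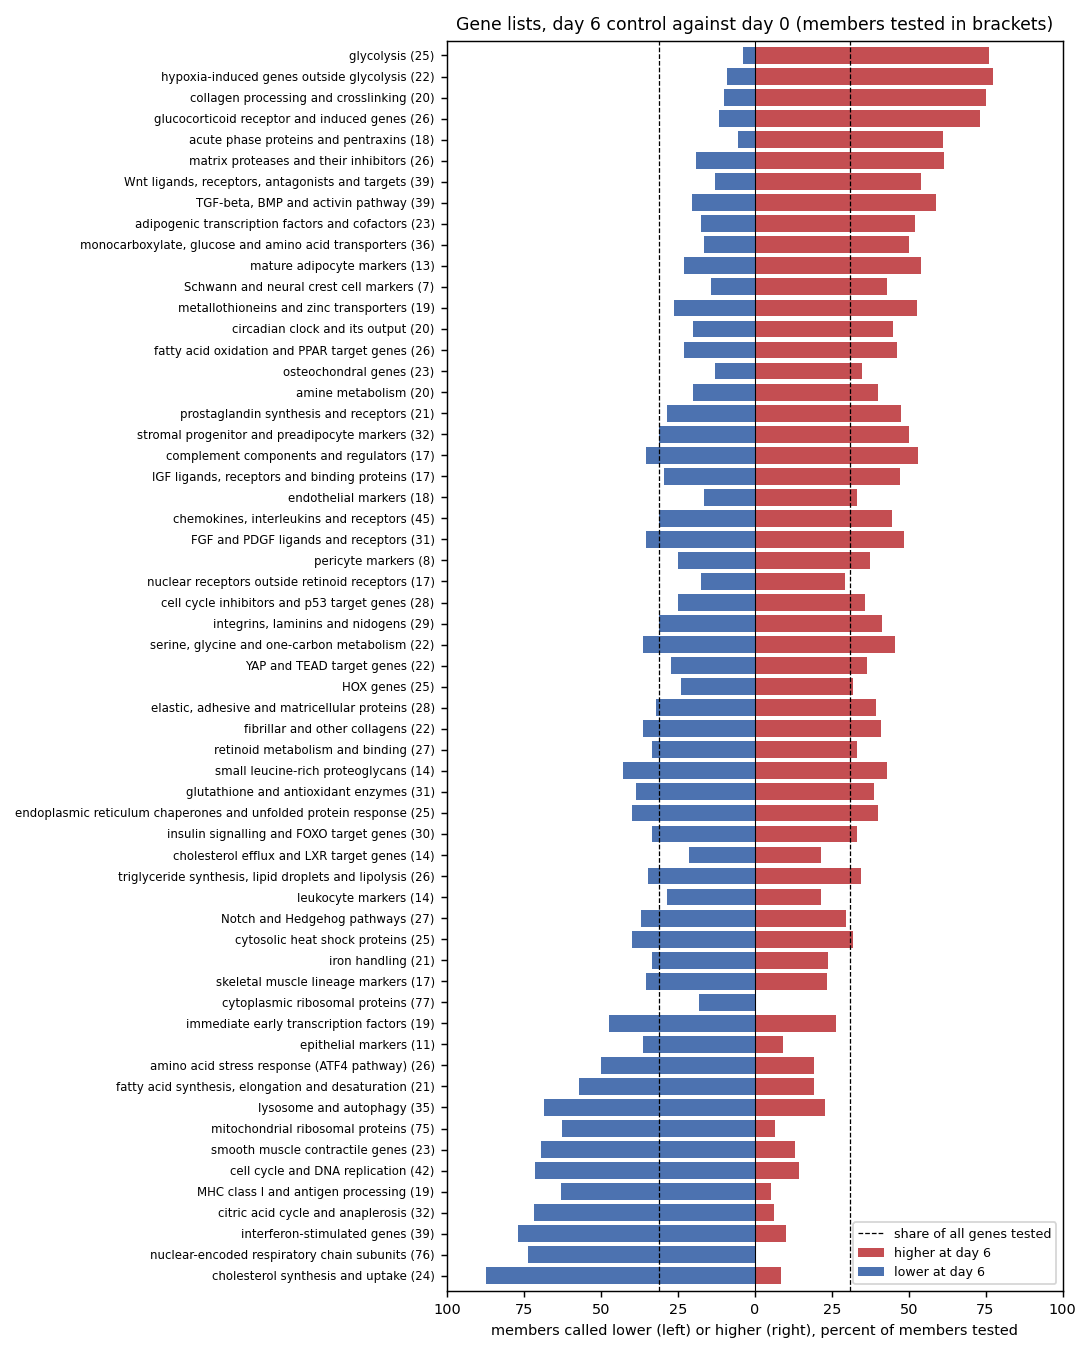
Share of the tested members of each of 59 gene lists that were called lower (blue, left) or higher (red, right) in day 6 control than at day 0, in percent, with the number of members tested in brackets. Dashed lines mark the shares over all genes tested, 31% higher and 31.3% lower. Glycolysis, hypoxia, collagen processing and glucocorticoid genes stand at the top, and cholesterol synthesis, respiratory chain and interferon genes at the bottom.

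Markers of the adipocyte programme moved in both directions. Of the 13 mature adipocyte markers tested, 7 rose (3 at least 2-fold) and 3 fell (2 at least 2-fold), with a median of 0.19. FABP4, the fatty acid carrier of fat cells, read 1.92, 1.89 and 1.95 at day 0 and 6.45, 6.22 and 6.12 at day 6. LPL, which frees fatty acids from lipoproteins, read -4.82, -4.50 and -4.47 at day 0 and -2.08, -2.12 and -2.12 at day 6 (2.49 ± 0.09), and the fatty acid receptor CD36 read -5.06, -4.89 and -5.44 at day 0 and -3.06, -3.30 and -3.0 at day 6 (2.01 ± 0.20). All 3 uptake genes were higher on each day 6 array than on any day 0 array, as were 32.9% of all genes tested. GPD1, which makes the glycerol backbone of triglyceride, rose by 0.94 ± 0.13. CIDEC, which enlarges lipid droplets by fusing them, ran the other way and read -1.95, -1.82 and -1.84 at day 0 and -4.80, -4.58 and -4.75 at day 6, a 7.17-fold fall (-2.84 ± 0.11, adjusted p = 6.5e-09). CFD (adipsin), a protease that fat cells secrete, fell by 1.72 (SE 0.16; its other probe -1.0) and the lipase PNPLA2 by 0.40 (SE 0.05). PLIN1, the droplet coat of mature fat cells, read -4.98, -5.48 and -5.33 at day 0 and -5.89, -5.54 and -5.25 at day 6 and did not pass the test (-0.30 ± 0.20, adjusted p = 0.23; -0.63 with slide as a block). Both probes for adiponectin (ADIPOQ) were not well above background on any of the 6 arrays, and at most 2 of the 6 read a leptin (LEP) probe above it.

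Factors of the programme were measured in a like split. Of 23 adipogenic transcription factors and cofactors tested, 12 rose and 4 fell (median 0.28; 0.13 with slide as a block). PPARG, the nuclear receptor that directs adipogenesis, read -2.32, -2.28 and -2.41 at day 0 and -0.39, -0.59 and -0.59 at day 6 (1.81 ± 0.07). CEBPD, an early factor that glucocorticoid induces, read 4.56, 4.58 and 4.52 at day 0 and 6.09, 6.12 and 6.01 at day 6 (1.52 ± 0.04). CEBPA, which works with PPARG, read 4.79, 4.89 and 4.69 at day 0 and 4.88, 5.05 and 4.82 at day 6, and its groups overlapped (0.13 ± 0.08, adjusted p = 0.19; its other probe differed by 1.36). Quantile and cyclic loess normalization called it higher (0.32 and 0.26), as did the median over its probes (1.36). CEBPB rose by 0.30 ± 0.10 (adjusted p = 0.022). That call was lost in the fit of the 6 arrays alone, with arrays scaled to their median (0.23) and with the median over its probes (0.19). Slide as a block (0.07) or as a random block (0.23) also ended the call. So did leaving out day 0 array 3, day 6 array 2 or day 6 array 3 in turn. The zinc finger factors ZBTB16 and KLF9, both known glucocorticoid targets, rose by 4.02 ± 0.08 and 1.41 ± 0.11. SREBF1 read 0.28, 0.36 and 0.38 at day 0 and -0.96, -1.15 and -0.91 at day 6 and fell (-1.35 ± 0.08), and ZNF423, a factor of preadipocyte commitment, fell by 0.60 (SE 0.08; not called when the median over its probes stood for it).

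Of 26 triglyceride storage genes tested, 9 rose and 9 fell (median -0.08, or -0.15 with slide as a block). These shares of 34.6% each way were near those over all genes tested (31% and 31.3%). DGAT2, the last step of triglyceride synthesis, was at least 12.1-fold higher on its brightest of 3 probes, which differed by 3.17 to 5.77. GPAT3, the first step, read -0.72, -0.76 and -0.64 at day 0 and 1.70, 1.78 and 1.76 at day 6 (2.45 ± 0.07). PLIN2, which coats small lipid droplets, read 1.70, 1.70 and 1.71 at day 0 and 3.97, 3.99 and 3.88 at day 6 (2.25 ± 0.05). HILPDA, a droplet protein that inhibits lipolysis, read -4.31, -4.36 and -4.29 at day 0 and -0.32, -1.26 and -1.44 at day 6, with day 6 array 1 about 1 log2 unit above arrays 2 and 3 (3.32 ± 0.23). Among the genes that fell, ACSL1, which links fatty acids to coenzyme A, read 3.35, 3.38 and 3.28 at day 0 and 2.01, 2.03 and 2.06 at day 6 (-1.31 ± 0.05), ABHD5, the activator of PNPLA2, changed by -0.79 ± 0.08 and the monoglyceride lipase MGLL by -0.55 ± 0.08. Of 26 genes of fatty acid oxidation and PPAR targets, 12 rose and 6 fell. PDK4, which closes the entry of pyruvate into the citric acid cycle, was at least 15.5-fold higher on its brightest probe, which was not well above background on any day 0 array (probes 1.64 to 5.28). ANGPTL4, a secreted inhibitor of LPL, read -4.23, -4.13 and -4.35 at day 0 and 2.97, 2.93 and 2.79 at day 6. CPT1A, the gate of mitochondrial fatty acid import, rose by 1.09 ± 0.09 and ECI1, an isomerase of oxidation, by 1.45 ± 0.07, while CPT2, the second import enzyme, read 4.45, 4.48 and 4.45 at day 0 and 3.05, 3.1 and 3.14 at day 6 (-1.36 ± 0.05).

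Most genes for the synthesis of fatty acids and sterols fell. Fatty acid synthesis, elongation and desaturation genes numbered 4 risers and 12 fallers among 21 tested (median -0.32). FASN, the fatty acid synthase, read 5.69, 5.61 and 5.67 at day 0 and 3.75, 3.90 and 4.03 at day 6 (-1.77 ± 0.09), and FADS2, a desaturase of polyunsaturated fatty acids, changed by -1.71 ± 0.06. Of 24 genes of cholesterol synthesis and uptake, 21 fell, 19 of them at least 2-fold, and 2 rose (median -1.48; -1.55 to -1.40 over the day 6 arrays). HMGCS1, which makes the precursor of mevalonate, read 3.75, 3.57 and 3.66 at day 0 and 1.11, 1.14 and 0.96 at day 6, and ACAT2, whose probe is printed above, read 1.33, 1.26 and 1.27 at day 0 and -0.92, -0.96 and -1.07 at day 6 (-2.27 ± 0.08, adjusted p = 3.2e-09). Cholesterol efflux and LXR target genes went both ways. ABCA1, the cholesterol exporter, read -2.80, -2.93 and -2.89 at day 0 and -0.83, -0.70 and -0.66 at day 6 (2.14 ± 0.12), while NPC1 and NPC2, which release cholesterol from lysosomes, changed by -0.93 ± 0.08 and -0.96 ± 0.10. In that list 3 of 14 rose and 3 fell, 21.4% each way against 31% and 31.3% over all genes tested.

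**Figure D3:**
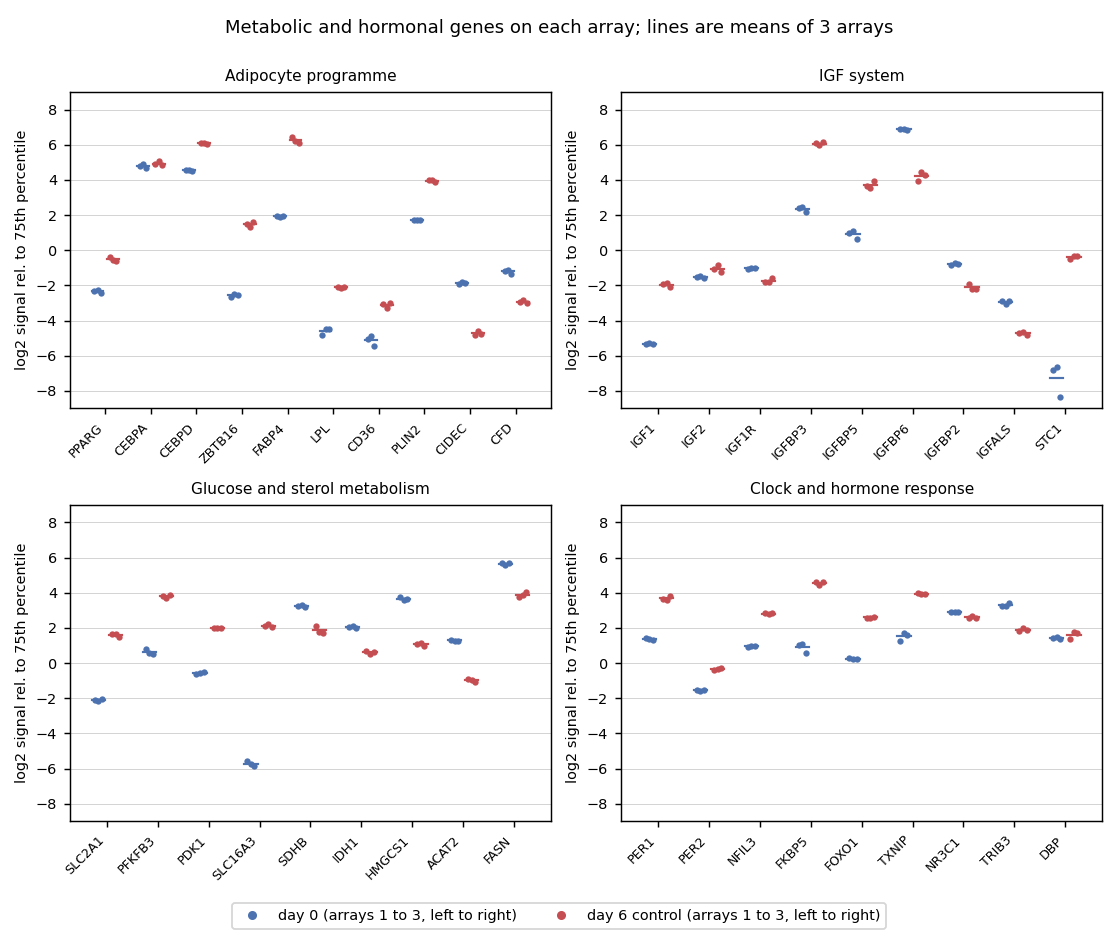
Log2 signal relative to the 75th percentile of the array for 37 genes in 4 panels, on each day 0 array (blue) and each day 6 control array (red), in array order from left to right, with lines at the mean of 3 arrays. FABP4, IGFBP3 and SLC16A3 stand well above their day 0 level and CIDEC, IGFBP6 and HMGCS1 well below, while CEBPA and DBP overlap.

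Most genes of the glucocorticoid response rose, 19 of 26 tested (16 at least 2-fold) against 3 that fell, with a median of 1.53 (1.51 to 1.57 over the day 6 arrays). MAOA, which oxidises monoamines, read -3.77, -3.69 and -4.14 at day 0 and 1.35, 1.09 and 1.07 at day 6, and FKBP5, a chaperone of the receptor named here after its values were seen, read 1.03, 1.08 and 0.60 at day 0 and 4.60, 4.46 and 4.62 at day 6 (3.66 ± 0.13). Known targets were also among the members that fell: SGK1, a kinase of sodium transport, read 1.45, 1.57 and 1.45 at day 0 and 0.34, 0.13 and 0.16 at day 6 (-1.28 ± 0.07), and CDKN1C, a cell cycle inhibitor, read -1.64, -1.54 and -1.73 at day 0 and -3.63, -3.49 and -3.65 at day 6 (-1.95 ± 0.12). NR3C1, the receptor itself, changed by -0.30 ± 0.06. HSD11B1, which activates cortisol in fat, read -1.82, -1.75 and -1.94 at day 0 and -2.92, -3.25 and -3.40 at day 6. Its arrays did not overlap between groups, which held downward for 34.7% of all genes tested. It missed the threshold in the limma fit over all 12 arrays (-1.35 ± 0.57, adjusted p = 0.063). It was called in the fit of the 6 arrays alone, with arrays scaled to their median and after normexp correction.

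The insulin-like growth factor system changed at the level of ligand, receptor and binding proteins. The ligands act through IGF1R, and the binding proteins hold them outside the cell. Of 17 members tested, 8 rose (6 at least 2-fold) and 5 fell (3 at least 2-fold). IGF1 read -5.33, -5.26 and -5.36 at day 0 and -1.92, -1.88 and -2.07 at day 6, a 10.2-fold rise (3.35 ± 0.15, probes 1.07 to 3.35), and IGF2 rose by 0.47 ± 0.10, with its 11 probes between -0.25 and 3.40. IGF1R, the shared receptor, read -1.05, -1.02 and -1.03 at day 0 and -1.82, -1.81 and -1.59 at day 6 and fell (-0.71 ± 0.07). Among the binding proteins, IGFBP3 read 2.41, 2.45 and 2.16 at day 0 and 6.08, 5.97 and 6.15 at day 6 (3.73 ± 0.11) and IGFBP5 read 0.96, 1.09 and 0.63 at day 0 and 3.64, 3.56 and 3.92 at day 6 (2.81 ± 0.14), while IGFBP6, which prefers IGF2, read 6.89, 6.89 and 6.84 at day 0 and 3.93, 4.44 and 4.26 at day 6 (-2.67 ± 0.11). IGFBP2 changed by -1.32 ± 0.08 and IGFALS, the third subunit of the circulating IGF complex, by -1.76 ± 0.21.

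Of 30 insulin signalling and FOXO target genes tested, 10 rose and 10 fell. These shares of 33.3% each way were near those over all genes tested (31% and 31.3%). The median was -0.04, or -0.17 with slide as a block and 0.02 without day 0 array 2. FOXO1, a factor that insulin keeps out of the nucleus, read 0.30, 0.21 and 0.24 at day 0 and 2.57, 2.57 and 2.65 at day 6 (2.35 ± 0.08). TXNIP, which limits glucose uptake, read 1.27, 1.69 and 1.59 at day 0 and 3.97, 3.91 and 3.94 at day 6 (2.42 ± 0.10), and SESN1, a restraint on mTORC1, rose by 1.55 ± 0.05. INSR, the insulin receptor, rose by 0.82 ± 0.11 and PIK3R1, the regulatory subunit of PI3 kinase, by 0.99 ± 0.12. The pseudokinases TRIB3 and TRIB2, which bind AKT, changed by -1.38 ± 0.08 and -1.02 ± 0.09, and the kinase AKT1 by -0.85 ± 0.09. IRS1 did not pass the test (-0.17 ± 0.08, adjusted p = 0.081), was called at -0.27 with slide as a block, and its other probe differed by 0.41.

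Clock genes rose where they changed by 2-fold or more. Of 20 genes of the circadian clock and its output, 9 rose (6 at least 2-fold) and 4 fell, each of these by under 2-fold. PER1, a repressor of the clock that glucocorticoid also induces, read 1.42, 1.35 and 1.31 at day 0 and 3.67, 3.58 and 3.81 at day 6 (2.33 ± 0.09, its 5 probes 0.52 to 2.33). PER2, whose probe is printed above, read -1.55, -1.61 and -1.5 at day 0 and -0.38, -0.31 and -0.29 at day 6 (1.23 ± 0.07). NFIL3, which represses clock output genes, read 0.90, 0.95 and 0.99 at day 0 and 2.83, 2.77 and 2.82 at day 6 (1.86 ± 0.04). ARNTL, the activator that drives the PER genes and named here after its values were seen, rose by 1.17 ± 0.06. The output activator DBP read 1.40, 1.48 and 1.35 at day 0 and 1.37, 1.75 and 1.73 at day 6, overlapping between groups (0.21 ± 0.09, adjusted p = 0.084; -0.04 with slide as a block). DBP was called at 0.33 without day 6 array 1, and also under quantile and cyclic loess normalization (0.25 and 0.27). The other DBP probe ran the opposite way, at -0.48. NR1D1, a repressor of ARNTL, differed by 0.33 ± 0.16 (adjusted p = 0.1) and was called in the 6 arrays alone, and its other probe differed by -0.04. BHLHE41 and the kinase CSNK1E changed by -0.74 ± 0.05 and -0.67 ± 0.06. The time of day of each harvest was not analysed here.

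Most glycolysis genes rose and most citric acid cycle genes fell. Of 25 glycolysis genes tested, 19 rose (8 at least 2-fold) and 1 fell, with a median of 0.72. SLC2A1, the basal glucose transporter, read -2.10, -2.17 and -2.04 at day 0 and 1.64, 1.63 and 1.5 at day 6 (3.69 ± 0.07), and PFKFB3, which speeds glycolysis, read 0.79, 0.60 and 0.50 at day 0 and 3.83, 3.69 and 3.89 at day 6 (3.17 ± 0.09). Of 22 other hypoxia-induced genes, 17 rose and 2 fell. HIF1A, the oxygen-sensitive factor, rose by 1.08 ± 0.07, whereas EPAS1, its relative HIF-2 alpha, read 5.47, 5.48 and 5.42 at day 0 and 3.64, 3.66 and 3.85 at day 6 (-1.74 ± 0.07). VLDLR, a lipoprotein receptor in the same list, changed by -0.86 ± 0.08. The one glycolysis gene that fell, LDHB (-0.24 ± 0.09, adjusted p = 0.034), lost its call with slide as a block (-0.07), in the 6 arrays alone and without 5 of the 6 single arrays. Among 32 genes of the citric acid cycle and anaplerosis, 23 fell (4 at least 2-fold) and 2 rose. IDH1, the cytosolic isocitrate dehydrogenase, read 2.04, 2.10 and 2.01 at day 0 and 0.71, 0.50 and 0.61 at day 6 (-1.44 ± 0.08), and SDHB, a subunit of succinate dehydrogenase, read 3.26, 3.28 and 3.18 at day 0 and 2.10, 1.78 and 1.70 at day 6 (-1.38 ± 0.11). ACO1 changed by -1.06 ± 0.07 and SDHA by -1.06 ± 0.07. IDH2 rose on its brightest probe (0.85 ± 0.05), but its 3 probes ran from -0.76 to 0.85.

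Of 76 nuclear-encoded respiratory chain subunits, which pass electrons to oxygen in mitochondria, 0 rose by limma (0 also at an unadjusted p under 0.05) and 56 fell, 2 of them at least 2-fold (median -0.34; -0.20 with slide as a block and -0.19 under quantile normalization). The mitochondrially encoded genes named above (-4.60 to -3.55), chosen for the size of their fall, are not in this list. Mitochondrial ribosomal protein genes had 5 up and 47 down of 75 (median -0.26, or -0.16 with the block). Both medians were nearest to 0 on day 6 array 1, which shares the day 0 slide, and farthest on array 3. Cytoplasmic ribosomal protein genes (0 up, also at an unadjusted p under 0.05, and 14 down of 77) had a median of -0.14 (-0.03 with the block). Quantile normalization gave a median of 0.03.

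Most enzymes that process collagen rose. Of 20 genes of collagen processing and crosslinking, 15 rose (6 at least 2-fold) and 2 fell, with a median of 0.41. P4HA3 read -1.98, -2.07 and -1.71 at day 0 and 3.0, 2.75 and 2.76 at day 6. PLOD2, which hydroxylates lysine at crosslink sites, read 0.94, 1.08 and 1.19 at day 0 and 3.39, 3.43 and 3.37 at day 6 (2.33 ± 0.09), and the prolyl hydroxylase P4HA1 read 0.72, 0.82 and 0.83 at day 0 and 2.18, 2.82 and 2.67 at day 6 (1.77 ± 0.14), lowest on day 6 array 1. LOXL1 read 2.01, 2.10 and 2.14 at day 0 and 3.33, 3.24 and 3.32 at day 6 (1.22 ± 0.05), while its relative LOXL2 changed by -0.73 ± 0.05. LOX and ADAMTS2, the latter a protease that trims procollagen, were outside the naming rule and rose by 1.17 ± 0.08 and 1.22 ± 0.08.

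Among 22 collagens tested, 9 rose and 8 fell. COL1A1 and COL3A1, chains of the main fibrillar collagens, differed by under 2-fold on their brightest probes. COL3A1 read 6.91, 6.89 and 6.95 at day 0 and 7.09, 7.13 and 7.09 at day 6 (0.19 ± 0.05), and COL1A1 read 6.37, 6.34 and 6.44 at day 0 and 5.41, 5.98 and 6.09 at day 6, a fall of 0.56 (SE 0.15) that was -0.97 with slide as a block and -0.35 without day 6 array 1 (its probes -1.36 to -0.46). It was not called under quantile or cyclic loess normalization, and the rise of COL3A1 was not called with arrays scaled to their median. COL7A1, of anchoring fibrils, read -1.58, -1.79 and -1.66 at day 0 and 0.44, 0.26 and 0.23 at day 6 (1.99 ± 0.13) and COL12A1, which sits on fibril surfaces, rose by 1.47 ± 0.11. COL5A3 read -1.41, -1.36 and -1.24 at day 0 and -3.97, -4.10 and -3.88 at day 6 (-2.65 ± 0.13; probes -2.65 to -0.57), and COL8A2 and COL15A1, a collagen of vessel basement membranes, changed by -2.20 ± 0.14 and -1.33 ± 0.12. Small leucine-rich proteoglycans, which bind and space collagen fibrils, had 6 risers and 6 fallers of 14, 42.9% each way. LUM read 5.32, 5.40 and 5.50 at day 0 and 6.86, 6.76 and 6.63 at day 6 (1.34 ± 0.07), DCN rose by 1.1 ± 0.08 and OMD by 2.68 ± 0.11, while ECM2 and PODN changed by -1.62 ± 0.05 and -1.06 ± 0.09.

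Matrix proteases and inhibitors rose in 16 and fell in 5 of 26 tested (median 0.59). A2M read -7.64, -7.84 and -7.05 at day 0 and 0.07, 0.33 and 0.28 at day 6 on its brightest probe, which was not well above background on any day 0 array, so the gene was at least 80.4-fold higher there. Its 5 probes differed by 3.74 to 8.77. MMP1, the interstitial collagenase, read -4.37, -4.64 and -4.81 at day 0 and -1.41, -1.46 and -1.81 at day 6 (3.04 ± 0.13) and the inhibitor TIMP4 rose by 2.95 ± 0.15. PLAU, a plasminogen activator, read 4.97, 4.96 and 4.81 at day 0 and 3.63, 3.47 and 3.43 at day 6 (-1.40 ± 0.07). It was lower on every day 6 array than on any day 0 array, as were 34.7% of all genes tested. The membrane collagenase MMP14, MMP11 and the inhibitor TIMP3 fell, by 1.45 (SE 0.19), 1.30 (SE 0.08) and 1.77 (SE 0.13).

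Basement membrane genes changed by chain. Of 29 integrins, laminins and nidogens, 12 rose (8 at least 2-fold) and 9 fell (2 at least 2-fold). LAMA2, the laminin chain around muscle and fat cells, read -2.78, -3.07 and -2.93 at day 0 and -1.07, -1.23 and -0.67 at day 6 (1.93 ± 0.13), and NID2, which links laminin to collagen IV, read 2.32, 2.34 and 2.32 at day 0 and 3.94, 4.04 and 4.23 at day 6 (1.75 ± 0.23). LAMA4, another chain of this kind named after its values were seen, rose by 1.35 ± 0.07. LAMA3, a chain of epithelial basement membranes, read -1.69, -1.79 and -1.77 at day 0 and -4.79, -4.60 and -4.06 at day 6 (-2.73 ± 0.18). The receptor ITGA8 read 0.57, 0.35 and 0.59 at day 0 and 3.43, 3.49 and 3.55 at day 6 (2.99 ± 0.07) and ITGA10 rose by 1.39 ± 0.11, while ITGA3, a laminin receptor, read 0.99, 1.05 and 1.09 at day 0 and -0.78, -0.66 and -0.75 at day 6 (-1.77 ± 0.06). ITGB4 fell on its brightest probe (-0.91 ± 0.06), with 5 probes from -2.48 to 0.33.

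Elastic, adhesive and matricellular proteins had 11 up and 9 down of 28 (39.3% and 32.1%, against 31% and 31.3% over all genes tested). ELN (elastin) rose by 1.32 ± 0.07, CCN1 by 1.21 ± 0.11 and THBS1, an activator of latent TGF-beta, by 1.12 ± 0.10, and TNXB, an organiser of collagen, changed by -3.68 ± 0.11, with 1 of 3 day 6 arrays above background. Smooth muscle contractile genes, which fibroblasts also carry when they contract, fell in 16 of 23 and rose in 3 (median -0.48). ACTA2, smooth muscle actin, read 7.81, 7.81 and 7.82 at day 0 and 6.76, 6.85 and 6.6 at day 6 (-1.08 ± 0.11), the kinase MYLK read 2.29, 2.26 and 2.53 at day 0 and 0.41, 0.64 and 0.72 at day 6 (-1.77 ± 0.09), and LMOD1 and CNN1 changed by -1.36 ± 0.11 and -1.31 ± 0.05. The members that rose, SMTN, CNN2 and TPM1, did so by 0.49 to 0.64 on their brightest probes, each under 2-fold. The probes of TPM1 differed by -0.22 to 1.56 and those of SMTN by 0.50 to 1.18.

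**Figure D4:**
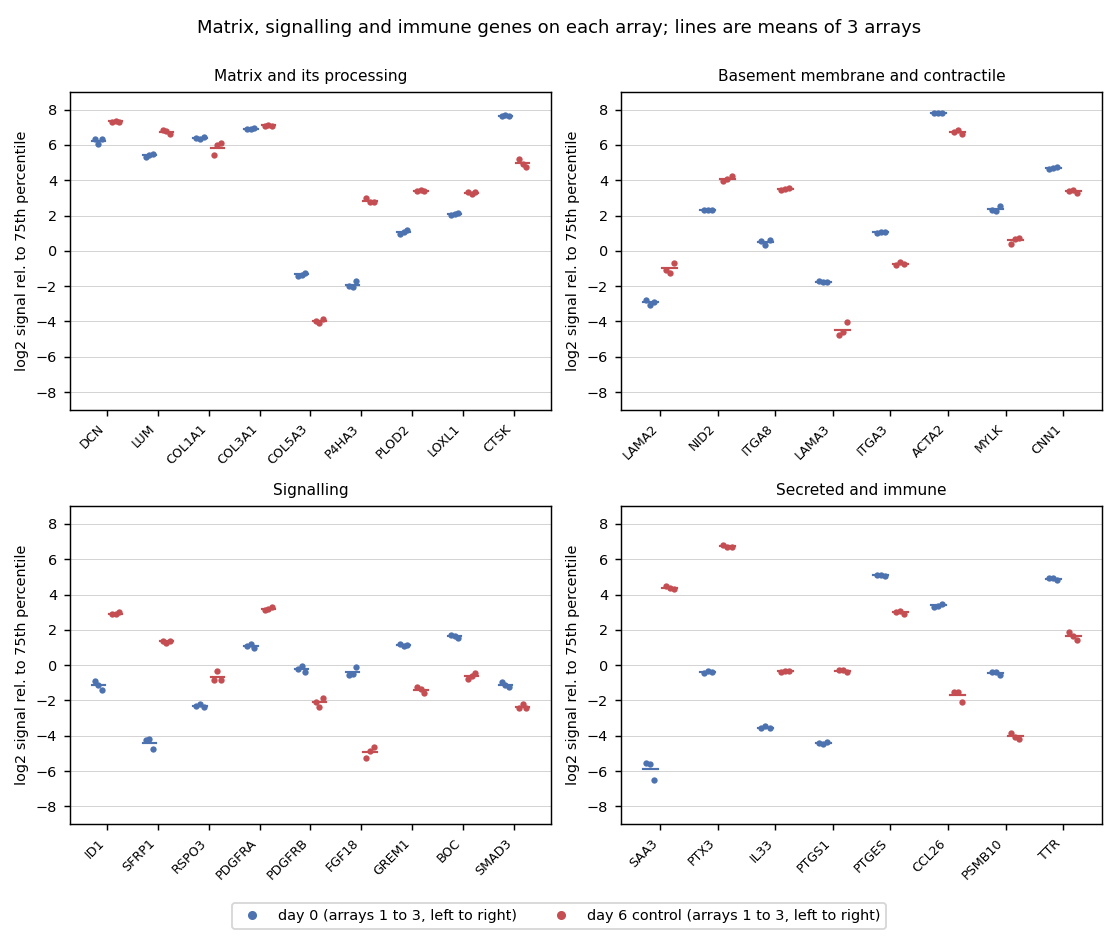
Log2 signal relative to the 75th percentile of the array for 34 genes of the matrix, basement membrane, signalling and secreted immune groups, on each day 0 array (blue) and each day 6 control array (red), in array order from left to right, with lines at the mean of 3 arrays. P4HA3, ID1, SFRP1 and SAA3 rose and CTSK, FGF18, CCL26 and TTR fell without overlap, and COL3A1 moved by 0.19. Over all genes tested, 32.9% were higher and 34.7% lower without overlap.

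Signals to the cell changed in ligands, receptors and targets alike. Of 39 genes of the TGF-beta, BMP and activin pathway, 23 rose (7 at least 2-fold) and 8 fell. ID1, a direct target of BMP signalling that blocks bHLH factors, read -0.88, -1.11 and -1.40 at day 0 and 2.88, 2.90 and 2.98 at day 6, a 16.6-fold rise (4.05 ± 0.13), and ID3 read -0.78, -0.76 and -0.95 at day 0 and 0.46, 1.21 and 1.15 at day 6 (1.77 ± 0.17), lowest of the day 6 arrays on array 1. GREM1, a BMP antagonist, read 1.2, 1.1 and 1.12 at day 0 and -1.22, -1.34 and -1.59 at day 6 (-2.52 ± 0.15), while CHRDL1, another antagonist, rose by 1.61 ± 0.08. BMP4, a ligand named after its values were seen, rose by 1.26 ± 0.06, and ACVR2B, an activin receptor, by 1.37 ± 0.12. SMAD3, whose probe is printed above, read -0.97, -1.1 and -1.22 at day 0 and -2.43, -2.23 and -2.41 at day 6 (-1.26 ± 0.10), INHBA, the activin A subunit, read 5.17, 5.22 and 5.26 at day 0 and 4.19, 4.37 and 4.12 at day 6 (-0.99 ± 0.06), and the ligand TGFB1 changed by -0.69 ± 0.08.

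Wnt pathway genes rose in 21 and fell in 5 of 39 tested (median 0.41). The ligand antagonist SFRP1 read -4.22, -4.19 and -4.75 at day 0 and 1.36, 1.28 and 1.38 at day 6. R-spondins, which raise Wnt receptor levels at the surface, were higher: RSPO1 was at least 9.52-fold higher and RSPO3 read -2.32, -2.21 and -2.36 at day 0 and -0.84, -0.32 and -0.83 at day 6 (1.63 ± 0.12). WNT10B, a ligand known to hold back adipogenesis, read -2.53, -2.58 and -2.24 at day 0 and -4.50, -4.05 and -4.16 at day 6 (-1.79 ± 0.13), and TCF7, a nuclear effector of Wnt, changed by -1.88 ± 0.18, with 2 of 3 day 6 arrays above background. Both calls were lost when the median over a gene's probes stood for it. DKK2, an antagonist, fell on its brightest probe (-1.21 ± 0.17; -0.77 with slide as a block) and its other probe differed by 0.22.

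FGF and PDGF genes rose in 15 and fell in 11 of 31, with 7 and 6 at least 2-fold (median 0.33; 0.09 with slide as a block and 0.11 without day 6 array 2). The PDGF receptors went opposite ways: PDGFRA, a marker of adipocyte progenitors, read 1.09, 1.18 and 0.96 at day 0 and 3.15, 3.15 and 3.29 at day 6 (2.12 ± 0.06, adjusted p = 1e-09), and PDGFRB, a marker of mural cells, read -0.21, -0.07 and -0.38 at day 0 and -2.09, -2.36 and -1.87 at day 6 (-1.89 ± 0.16, adjusted p = 2.3e-06). FGF10, a mesenchymal ligand that acts in fat formation, read -5.61, -4.76 and -5.86 at day 0 and -3.28, -3.12 and -3.22 at day 6 (2.20 ± 0.23), FGF5 was at least 3.46-fold higher and EREG, a ligand of the EGF receptor, at least 5.78-fold. FGF18 read -0.58, -0.51 and -0.11 at day 0 and -5.24, -4.85 and -4.64 at day 6 (-4.51 ± 0.16) and was above background on 2 of the 3 day 6 arrays. ETV1 and ETV4, factors that FGF signals induce, changed by -1.60 ± 0.09 and -1.40 ± 0.09. In the Notch and Hedgehog list 8 of 27 rose and 10 fell. GLI1, the readout of Hedgehog signalling, rose on its brightest probe (2.16 ± 0.11; probes 0.24 to 2.16; not called with the median over them, 0.65), and the co-receptor BOC read 1.74, 1.64 and 1.55 at day 0 and -0.76, -0.62 and -0.42 at day 6 (-2.24 ± 0.09). LFNG, a glycosyltransferase that tunes Notch, rose by 1.70 ± 0.10 on its brightest of 3 probes (the lowest 0.22; not called with the median over them, 0.22), and NOTCH4 changed by -1.39 ± 0.06.

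Most acute phase genes rose, and most antigen processing genes fell. Of 18 acute phase proteins and pentraxins, 11 rose and 1 fell. SAA3, a serum amyloid A gene, read -5.54, -5.63 and -6.53 at day 0 and 4.50, 4.36 and 4.32 at day 6 on its brightest probe, with 2 of 3 day 0 arrays above background. Its 6 measured probes differed by 2.38 to 10.41. PTX3, a secreted pattern recognition protein, read -0.42, -0.34 and -0.40 at day 0 and 6.81, 6.72 and 6.70 at day 6. The one that fell was TTR (transthyretin), a carrier of thyroid hormone and retinol, at 4.92, 4.93 and 4.80 at day 0 and 1.89, 1.66 and 1.43 at day 6 (-3.22 ± 0.11). Complement genes rose in 9 and fell in 6 of 17. The terminal component C6 rose by 2.62 ± 0.08 and the regulator CLU by 2.06 ± 0.07. In the alternative pathway CFB rose by 1.19 ± 0.09, while CFD, given above, changed by -1.72 ± 0.16 (its other probe -1.0). The classical pathway genes C4A, C2 and C1R changed by -1.12 ± 0.13, -1.05 ± 0.08 and -0.81 ± 0.07.

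Chemokines, interleukins and their receptors were called in both directions (20 up, 13 at least 2-fold, and 14 down, 8 at least 2-fold, of 45). CCL19, which draws lymphocytes, was at least 17.1-fold higher, and the alarmin IL33 read -3.57, -3.47 and -3.57 at day 0 and -0.39, -0.33 and -0.30 at day 6 (3.2 ± 0.07). CCL26, which draws eosinophils, read 3.31, 3.37 and 3.48 at day 0 and -1.51, -1.54 and -2.07 at day 6 (-5.10 ± 0.14), and ACKR4, a scavenger of CCL19, read -0.85, -0.76 and -1.05 at day 0 and -4.50, -4.19 and -4.42 at day 6 (-3.49 ± 0.13). IL1RN, the interleukin 1 receptor antagonist, read -3.62, -3.63 and -3.23 at day 0 and -3.86, -6.17 and -6.51 at day 6, and its fall (-2.02 ± 0.54) rested on arrays 2 and 3, being -0.36 and not called with slide as a block, and 1 of 3 day 6 arrays was above background. Prostaglandin genes changed in 10 upward and 6 downward calls of 21. PTGS1, the constitutive cyclooxygenase, read -4.40, -4.47 and -4.38 at day 0 and -0.29, -0.27 and -0.38 at day 6 (4.10 ± 0.12; its other probe 1.18), and the prostaglandin F receptor PTGFR read -3.04, -2.79 and -2.81 at day 0 and -0.34, -0.03 and -0.17 at day 6 (2.70 ± 0.10). PTGER3, a receptor of prostaglandin E2, was at least 3.65-fold higher, while PTGES, which makes that ligand, read 5.09, 5.10 and 5.05 at day 0 and 3.02, 3.06 and 2.89 at day 6 (-2.09 ± 0.06) and the prostaglandin D synthase PTGDS changed by -1.14 ± 0.09.

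Of 19 genes of MHC class I and antigen processing, 12 fell and 1, the chaperone CANX, rose (0.26 ± 0.05). The 3 inducible subunits of the immunoproteasome fell together. PSMB10 read -0.39, -0.39 and -0.56 at day 0 and -3.82, -4.08 and -4.19 at day 6, PSMB8 read 1.14, 1.25 and 1.13 at day 0 and -0.95, -1.19 and -1.31 at day 6 (-2.32 ± 0.10) and PSMB9 read 1.87, 1.80 and 1.87 at day 0 and 0.04, -0.20 and -0.49 at day 6 (-2.06 ± 0.14). PSME1, a cap of the proteasome, changed by -1.49 ± 0.10. Interferon-stimulated genes fell in 30 of 39 and rose in 4 (median -0.79).

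Lysosome and autophagy genes were lower as well, 24 of 35 (9 at least 2-fold) against 8 that rose (median -0.39, or -0.25 under quantile normalization). CTSK, a collagen-degrading cathepsin, read 7.62, 7.71 and 7.64 at day 0 and 5.21, 4.91 and 4.77 at day 6, a 6.44-fold fall (-2.69 ± 0.11). CTSS, an elastin-degrading cathepsin, read 2.12, 2.14 and 1.83 at day 0 and -0.04, -0.36 and -0.15 at day 6 (-2.21 ± 0.10), the autophagy receptor SQSTM1 read 3.58, 3.54 and 3.59 at day 0 and 1.73, 1.84 and 1.87 at day 6 (-1.76 ± 0.05), and the calcium channel MCOLN1 changed by -1.57 ± 0.05. MITF, a regulator of lysosomal genes, and WIPI1, of early autophagy, rose by 1.03 ± 0.08 and 1.11 ± 0.05.

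Proliferation genes fell, with 30 of 42 cell cycle and DNA replication genes lower and 6 higher (median -0.57). The mitotic kinesin KIF20A read -2.34, -2.23 and -2.47 at day 0 and -4.18, -4.50 and -4.09 at day 6 (-1.91 ± 0.13). CDC20, which starts anaphase, changed by -2.31 ± 0.60 (adjusted p = 0.0069), with 2 of 3 day 6 arrays above background, a call lost with slide as a block and when the median over its probes stood for it. CCND3, a D-type cyclin that also acts in differentiation, read 2.01, 2.03 and 1.98 at day 0 and 3.95, 3.94 and 3.79 at day 6 (1.89 ± 0.06). MYC, a growth factor response gene in the list of immediate early factors, read -0.12, -0.10 and -0.07 at day 0 and 2.88, 2.74 and 2.91 at day 6 (2.95 ± 0.06), while EGR1 read 3.74, 3.47 and 3.51 at day 0 and 1.69, 1.70 and 1.87 at day 6 (-1.82 ± 0.10). JUN and FOSL2 rose by 1.39 ± 0.10 and 1.45 ± 0.06, and FOSL1 and IER2 changed by -0.97 ± 0.14 and -0.96 ± 0.07. In all 5 of 19 immediate early factors rose and 9 fell. CDKN1A, the p21 inhibitor, read 5.68, 5.69 and 5.71 at day 0 and 5.70, 5.70 and 5.57 at day 6, overlapping between groups (-0.04 ± 0.05, adjusted p = 0.5; 0.0027 with slide as a block), and quantile normalization turned this to a called 0.16. The antiproliferative BTG1 and the p53 regulator MDM2 rose by 1.66 ± 0.05 and 1.47 ± 0.09.

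Transporter and antioxidant genes changed in both directions. Transporters of monocarboxylates, glucose and amino acids rose in 18 and fell in 6 of 36. SLC16A3, which exports lactate, read -5.59, -5.74 and -5.87 at day 0 and 2.09, 2.22 and 2.04 at day 6 (its 4 probes 3.07 to 7.85), the glutamate carrier SLC1A1 was at least 17.8-fold higher and SLC16A6 at least 11-fold, and the glutamine carrier SLC38A5 changed by -1.29 ± 0.07. Of 31 glutathione and antioxidant enzymes, 12 rose and 12 fell. GPX3, the secreted glutathione peroxidase, read -1.04, -0.92 and -1.2 at day 0 and 1.79, 1.59 and 1.63 at day 6 (2.73 ± 0.08), and SOD2, of mitochondria, rose by 1.62 ± 0.10, while HMOX1, which breaks down haem, changed by -1.25 ± 0.15. AOC3, a surface amine oxidase abundant in mature fat cells, read 1.49, 1.55 and 1.47 at day 0 and -0.57, -0.57 and -0.52 at day 6 (-2.05 ± 0.06), and DDC, which makes dopamine, read 0.35, 0.25 and 0.41 at day 0 and 3.09, 3.19 and 2.97 at day 6 (2.75 ± 0.09). STRA6, a receptor for the retinol carrier, read -2.73, -2.78 and -2.44 at day 0 and -5.37, -6.09 and -6.43 at day 6 (-3.31 ± 0.23), with 1 of 3 day 6 arrays above background and probes from -4.18 to -0.24.

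The labelled cell type was set beside markers. THY1 and NT5E were named after their values were seen, so they cannot check the label. Stromal genes were well above background in both groups: THY1 read 4.98, 5.04 and 5.02 at day 0 and 5.19, 5.33 and 5.33 at day 6, NT5E read 3.17, 3.22 and 3.26 at day 0 and 2.55, 2.41 and 2.38 at day 6, and PDGFRA lay at 0.96 or higher on all 6 arrays. The small rise of THY1 (0.27 ± 0.06) was not called with slide as a block (0.18), and the fall of NT5E (-0.77 ± 0.05) turned to 0.13 when the median over its probes stood for it. CD34, a marker of fat progenitors in tissue, was not well above background on any of the 6. DLK1, a preadipocyte marker that blocks differentiation, read 0.61, 0.76 and 0.69 at day 0 and 0.44, 1.07 and 1.22 at day 6 and did not pass the test (0.22 ± 0.17, adjusted p = 0.26), the direction turning with slide as a block (-0.24). Without day 6 array 1 it was called (0.46). PI16, a marker of early stromal progenitors, read -3.41, -3.41 and -3.31 at day 0 and -6.49, -5.73 and -5.78 at day 6 (-2.62 ± 0.20), with 2 of 3 day 6 arrays above background, and PRRX1, a mesenchymal factor, changed by -1.35 ± 0.06 (its other probe 0.09). Of 32 stromal progenitor and preadipocyte markers, 16 rose and 10 fell, shares of 50% and 31.2%.

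Markers of other cell types were mixed. MYOD1, the factor of muscle precursors, read 0.98, 1.06 and 1.03 at day 0 and 0.82, 1.34 and 1.44 at day 6 and did not differ beyond the test's threshold (0.17 ± 0.13, adjusted p = 0.28; -0.21 with slide as a block and 0.36 without day 6 array 1, both called), and the probe for PAX7, of satellite cells, was above background on 1 of 6 arrays at most. Of 17 muscle lineage markers 4 rose and 6 fell, and MYH3, the embryonic myosin, was at least 6.31-fold higher. The endothelial definers PECAM1 and CDH5, the latter named after its values were seen, were above background on 1 of 6 arrays and on none. Among 18 endothelial markers tested 6 rose and 3 fell. TEK, an angiopoietin receptor, rose by 1.63 ± 0.15, EGFL7 by 1.79 ± 0.09 on its brightest of 4 probes (lowest -0.20; not called with the median over them, 0.28), and APLNR, the apelin receptor, read -0.37, -0.39 and -0.31 at day 0 and -6.93, -8.16 and -8.07 at day 6, at least 42.5-fold lower on its brightest probe, which was not well above background on any day 6 array. PTPRC, the leukocyte antigen CD45, read 0.83, 0.93 and 0.68 at day 0 and -0.20, 0.53 and 0.66 at day 6, a call (-0.48 ± 0.19, adjusted p = 0.045; -1.01 with slide as a block) that was lost without any day 0 array or day 6 array 1 in turn, and whose other probe differed by 0.09. The monocyte gene CD14 rose by 1.89 ± 0.09 (probes 0.38 to 1.89). Epithelial EPCAM, also named after its values were seen, was above background on at most 1 of 6 arrays. The part of such markers in the results above was not tested, and in bulk RNA fewer cells of a kind and less RNA per cell cannot be told apart.

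**Figure D5:**
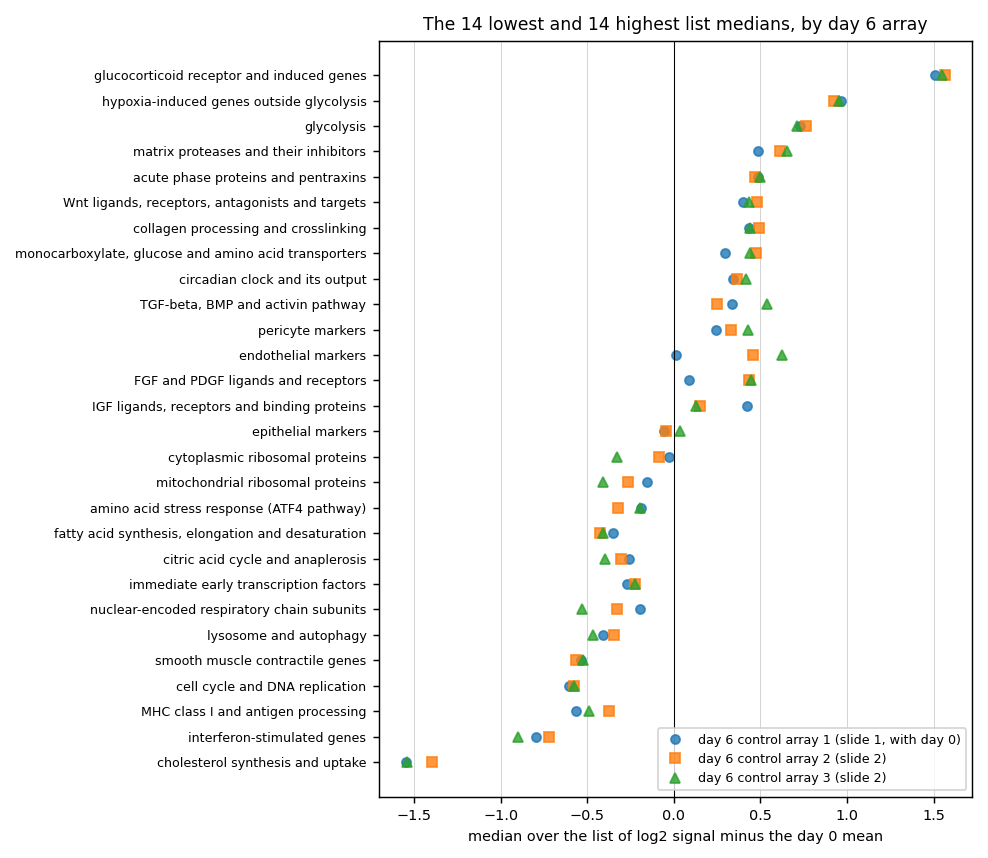
Median over the tested members of a list of the log2 signal on a day 6 control array minus the day 0 mean (horizontal axis), for the 14 lists with the lowest and the 14 with the highest medians, with a symbol per day 6 array. The glucocorticoid list lies at 1.51 to 1.57 on the 3 arrays and the cholesterol list at -1.55 to -1.40, while the endothelial list runs from 0.01 on array 1 to 0.62 on array 3.

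Day 6 array 1, which alone of them lay on the day 0 slide, differed more from arrays 2 and 3 than these did from each other. The slide and other traits of array 1 cannot be told apart here. Over 11110 genes with a symbol above background on all 6 arrays, array 1 differed from the mean of arrays 2 and 3 by over 0.5 log2 units for 628 genes (5.65%). Day 0 array 1 differed so from its own partners for 147 genes, and day 6 arrays 2 and 3, which share a slide, from each other for 172. No pair of arrays in a group was a copy, with median absolute differences of 0.0554 to 0.153. In 9 of the 10 genes with the widest gap, array 1 was the high one. ANGEL1 read -5.33, -5.66 and -5.57 at day 0 and 0.91, -5.09 and -5.13 at day 6, GFAP, a filament of glial cells, -4.68, -3.27 and -5.03 at day 0 and -0.18, -4.78 and -4.91 at day 6, and FAM98B, SPATA4, KLHL10, PHACTR1, SYTL1, NEU4 and RIPOR2 read -0.44 to -2.68 on array 1, with both other arrays lower. LOC100336868 ran the other way at -4.80, -4.71 and -4.37 at day 0 and -4.74, -2.06 and -1.77 at day 6. None of the first 9 was called by limma over all 12 arrays (ANGEL1 adjusted p = 0.13). With slide as a block array 1 alone stands for day 6, so the value of a gene chosen for that array's reading follows from the choice. LOC100336868 was called by limma (adjusted p = 0.027), but not without 4 of the 6 single arrays. Its value with slide as a block (-0.11) follows from the choice in the same way. The source of these single high readings was not tested.

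The remaining lists are given by count. Some lay away from the shares over all genes (31% higher, 31.3% lower), among them the ATF4 pathway (19.2% higher, 50% lower). Metallothioneins and zinc transporters (52.6% higher, 26.3% lower) and the 11 epithelial markers (9.09% higher, 36.4% lower) did too. Rises and falls numbered 5 and 3 of 17 for other nuclear receptors, 10 and 8 of 22 for serine and one-carbon metabolism, and 5 and 13 of 26 for the ATF4 pathway. They were 10 and 10 of 25 for endoplasmic reticulum chaperones, 8 and 10 of 25 for cytosolic heat shock proteins, and 10 and 7 of 28 for cell cycle inhibitors and p53 targets. YAP and TEAD targets had 8 and 6 of 22, metallothioneins and zinc transporters 10 and 5 of 19, and iron handling 5 and 7 of 21. Amine metabolism had 8 and 4 of 20, retinoid metabolism and binding 9 and 9 of 27, and HOX genes 8 and 6 of 25. Markers of other lineages had 8 and 3 of 23 (osteochondral), 3 and 4 of 14 (leukocyte), 1 and 4 of 11 (epithelial), 3 and 1 of 7 (Schwann and neural crest) and 3 and 2 of 8 (pericyte).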

How the data were processed

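Single-colour Agilent arrays of Cy3-labelled RNA were used, 3 for day 0 and 3 for day 6 control. The deposited scanner files hold spot intensity from Feature Extraction 10.7.3.1, background-subtracted and detrended per the file headers, with probe positions on build UMD3.1. Control spots and spots marked as non-uniform or population outliers were left out. The processed intensity was put on the log2 scale minus each array's 75th percentile, and spots of 1 probe were averaged. The probe with the highest mean over the arrays stood for its gene. Of the probes, 28557 were named by accession, 5115 by current and 138 by older symbol in RefSeq's table for assembly ARS-UCD2.0, and 9843 kept the file's name.

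limma 3.58.1 in R 4.3.3 (lmFit and eBayes, two-sided, Benjamini-Hochberg over all genes tested) was fitted to all 12 arrays, which share 1 estimate of the spread, and was tested on simulated data. For an "at least N-fold" value the dim group was floored on each array at the lowest signal that was well above background, or kept at its own signal where that was higher, and its mean was set against that of the bright group. List members are given by counts and medians, with no set test. Members and lists were chosen with earlier results of these data known. Named genes were the 15 largest called, non-overlapping changes each way among genes whose probe passed the background test on all 6 arrays, the 6 largest bounds each way, up to 4 called members of a list each way, a fixed set of adipocyte, stromal, hormone and marker genes, and the 10 genes that differed most between day 6 array 1 and arrays 2 and 3. FKBP5, ARNTL, LOX, ADAMTS2, LAMA4, BMP4, THY1, NT5E, CDH5 and EPCAM were chosen after their values were seen. Some genes that the rule selects are not reported here.

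The authors' deposited table of log2 values has 1 column per group, with column medians of 0.01 for day 0 and -0.01 for day 6. Its scale and direction were read from the arrays: over 17032 genes its day 6 minus day 0 difference correlated with that computed here across genes at r = 0.988, with a median absolute difference of 0.0034. Its centring cancels in that difference. Scaling, background correction, filters, the probe rule, the slide and single arrays were varied in turn, and array number was added as a block.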

Additional observations from a re-analysis of the deposited data

How the results depend on the processing

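Of 241 genes named and called, 223 kept their direction and call under each tested alternative. The count of 10986 genes called ranged from 9437 with slide as a block, of which 8545 were called in the same direction in the main comparison, to 11113 under cyclic loess normalization, and from 10018 to 11583 when each array was left out in turn. After normexp background correction, with an offset of 50 added to the signals, the calls of at least 2-fold were 842 higher and 627 lower. Of these, 839 and 626 were among the 1492 and 1025. The part of the offset in this was not tested. Scaling to the median moved the median of all genes to -0.07, with 4684 called higher and 6247 lower.

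Directions turned for CDKN1A (0.16) under quantile normalization, for IDH2 (-0.76), IRS1 (0.41), NT5E (0.13) and PTPRC (0.21) with the median over probes, for LOC100336868 (-0.11), MYOD1 (-0.21) and RIPOR2 (1.70) with slide as a block, and for PHACTR1 without day 6 array 1 (-0.36 to 1.52 when each array was left out). Values not called turned with slide as a block for DLK1 (-0.24), DBP (-0.04) and CDKN1A (0.0027). With slide as a block 12 list medians changed sign, among them leukocyte markers (-0.25), skeletal muscle markers (-0.13), collagens (-0.11), osteochondral genes (-0.10) and the Notch and Hedgehog list (-0.09). The heat shock median turned to 0.072 under quantile normalization. The glutathione and antioxidant median turned to 0.069 under quantile and 0.067 under cyclic loess normalization. The epithelial median turned to 0.072 with only genes above background on all 6 arrays and to 0.084 without day 6 array 1 (-0.20 to 0.084 when each array was left out). The causes were not tested. Keeping marked spots, a choice added after seeing the data, gave 10983 calls. Leaving out spots marked as non-uniform was not run as an alternative, because the comparison itself leaves them out. The labels give no replicate numbers, and the array files are numbered 1 to 3. With array number as a replicate block, added after seeing the data, 10598 genes were called. Deviations of same-numbered arrays from their group means correlated at -0.102, -0.0669 and -0.055 over 15409 genes, so the numbers were not taken to pair the arrays. Genes not well above background in 1 group have only a bound, and 3 arrays a group limit the precision.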
